A study of Mus musculus with 14 samples.

Results

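The transcripts of 10 core circadian clock genes, Per2, Per3, Dbp, Tef, Hlf, Nr1d1, Arntl, Clock, Bhlhe41 and Nfil3, were examined in whole mouse colon. They were taken as all probes whose RefSeq accession maps to 1 of these genes, which gave 19 probes for 10 of the 19096 gene symbols named on the array. RNA came from 14 female C57BL/6 mice aged 4 to 6 months and kept on chow, with 1 mouse per array. All mice carried GR fl/fl alleles, in which loxP sites flank part of the glucocorticoid receptor (GR) gene Nr3c1. Flox mice had no Cre and served as controls. GR iKO mice also carried Villin-cre, which removes GR from the intestinal epithelium and leaves it in muscle, nerve, stromal and immune cells, so a whole colon of these mice still holds GR. Mice of each genotype drank water (Flox water, n = 4, and GR iKO water, n = 4) or 2.5% dextran sulfate sodium (DSS), a polymer that damages the lining of the colon and brings on colitis, over 7 days (Flox DSS, n = 3, and GR iKO DSS, n = 3). The time of day at which colons were taken is not given in the sources used here, so differences in collection time between mice or groups cannot be told apart from the comparisons below.

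The circadian clock is a feedback loop of transcription factors that runs in most cells, including colonocytes. CLOCK and ARNTL (also called BMAL1) form a heterodimer that activates genes through E-boxes, among them the Per and Cry repressors, Nr1d1 (REV-ERB alpha) and the proline and acidic amino acid-rich (PAR) bZIP factors Dbp, Tef and Hlf. NR1D1 in turn represses Arntl and Nfil3 through ROR response elements (ROREs), and NFIL3 competes with the PAR bZIP factors at D-boxes, so that Dbp and Nr1d1 peak at the opposite phase of the day from Arntl and Nfil3. Glucocorticoids, whose blood level cycles daily, can shift peripheral clocks, in part through a GR binding site at Per1. The comparisons therefore addressed whether clock transcripts differed between groups, as a change in GR signalling or in the clock phase of the collected tissue could give.

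RefSeq promoters, each 250 bases before and 50 bases after a transcription start in assembly GRCm38.p6, were matched for 9 of the 10 genes, 13 promoters in all. Both strands were searched for the E-box CACGTG, the D-box TTATGTAA or TTACGTAA, the RORE TAGGTCA or TGGGTCA and the palindromic glucocorticoid response element. None of the matches overlapped another. An E-box was found in Tef and Bhlhe41, a D-box in Per3, a RORE in Arntl and Nfil3, and a glucocorticoid response element in none of the 9. The RORE of Arntl lay in its promoter 2, while its promoter 1 held no match, and the E-box of Tef was found in its promoters 1 and 2. Among all 32851 promoters of this length, 7.15% held the E-box, 1.06% a D-box, 6.45% a RORE and 0.00913% the glucocorticoid response element. These shares are per promoter, whereas a gene was counted if any of its promoters held a match. The matches are descriptions of these windows and do not show that a factor bound there. The 4 stretches below were chosen for the following reasons. Arntl and Nfil3, the genes with a RORE, were the members called with DSS in both genotypes by their brightest probe. They moved in opposite directions. Dimmer probes of Clock, whose promoters held no match, were also called in both genotypes. Tef followed Dbp most closely from mouse to mouse, and Per3 was the member with D-boxes. The stretches read 5′ to 3′ on the strand of the gene, with matches in capitals. The Arntl stretch lies at chr7:113207530-113207557 (+ strand), 20 to 47 bases after the start of its promoter 2, with its RORE at 31 to 37. The others are the 250 bases before the start. Nfil3 is at chr13:52981040-52981289 (− strand), and its RORE (on the opposite strand, read as TGACCTA) begins 12 bases before the start. Tef, from its promoter 2, is at chr15:81811164-81811413 (+ strand), with its E-box beginning at −138. Per3 is at chr4:151044666-151044915 (− strand), with D-boxes beginning at −205 and −158.
Arntl: aaggcagaaagTAGGTCAgggacggagg
Nfil3: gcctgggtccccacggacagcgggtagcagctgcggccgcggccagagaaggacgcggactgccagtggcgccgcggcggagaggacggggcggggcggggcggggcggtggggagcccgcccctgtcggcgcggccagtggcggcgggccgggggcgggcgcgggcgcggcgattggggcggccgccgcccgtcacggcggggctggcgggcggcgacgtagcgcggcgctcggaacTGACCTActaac
Tef: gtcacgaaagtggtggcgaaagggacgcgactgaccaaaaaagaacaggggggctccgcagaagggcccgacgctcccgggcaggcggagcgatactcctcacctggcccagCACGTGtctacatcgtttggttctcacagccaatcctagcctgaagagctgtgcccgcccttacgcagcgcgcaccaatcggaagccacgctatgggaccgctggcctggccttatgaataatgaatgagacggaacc
Per3: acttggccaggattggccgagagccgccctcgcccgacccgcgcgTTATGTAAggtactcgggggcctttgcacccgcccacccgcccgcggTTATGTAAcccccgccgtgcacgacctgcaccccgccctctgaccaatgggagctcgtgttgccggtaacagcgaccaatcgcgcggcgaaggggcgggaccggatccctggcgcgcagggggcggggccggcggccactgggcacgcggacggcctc

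Each probe's level is given as the log2 of its processed signal minus the log2 of the 75th percentile of the array, and tests covered probes that 3 or more of the 14 arrays detected well above background. These were 29520 of 41174 probes and 17 of the 19 clock probes, which represent 9 genes. The 2 probes of Bhlhe41, a repressor of CLOCK and ARNTL activity, were each well above background on 1 array only (A_51_P451176 on GR iKO DSS replicate 3 and A_52_P618912 on GR iKO DSS replicate 1) and were not tested. The 75th percentile of the signal ranged from 280.4 to 1051 intensity units, and each array detected 62.58% to 71.25% of probes well above background. Arrays varied more on DSS, where the median SD of a probe within a group was 0.256 in Flox and 0.34 in GR iKO, against 0.178 and 0.171 on water, so water and DSS arrays were given separate weights. Nr3c1, which checks the genotype labels, was at 1.12 ± 0.13 (SD, n = 4) in Flox water and 0.32 ± 0.16 (SD, n = 4) in GR iKO water colons, or 57.2% of Flox, and at 55.4% of Flox on DSS (1.16 ± 0.20 and 0.31 ± 0.06, SD, n = 3 each). Groups did not overlap in either comparison (exact permutation p = 0.0286 on water and 0.1 on DSS, each the smallest the design allows). Its difference was called over all probes on water (adjusted p = 0.00902) but not on DSS (adjusted p = 0.0869). The water call was lost under 8 alternatives, among them slide as a fixed block (0.145), a replicate block (0.16) and a shared spread (0.0962). Of the 3 dimmer Nr3c1 probes, A_52_P63106 was at 54.2% of Flox on water and 56.5% on DSS with no overlap, A_52_P254174 overlapped on water (55.6%), and A_51_P355693 overlapped on DSS (74.7%).

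DSS lowered Arntl and raised Nfil3 in both genotypes, and no clock gene was called between the genotypes. In Flox colons, 3 of the 9 tested clock genes were called (adjusted p under 0.05 by limma, over all probes). Hlf and Nfil3 rose and Arntl fell. In GR iKO colons, 3 of 9 were also called, with Nfil3 higher and Arntl and Clock lower. These shares were no larger than the background. Of all 29520 probes, 48.4% were called between DSS and water in Flox (21.2% higher and 27.2% lower) and 39.8% in GR iKO (17.8% higher and 22% lower). With 1 probe per gene, as for the clock genes, 50.5% and 42.9% of 15537 genes were called (24.2% higher and 26.3% lower in Flox, 20.3% higher and 22.6% lower in GR iKO), against 33.3% of the clock genes in each genotype. The median log2 difference of the 9 clock genes was −0.17 in Flox and 0.11 in GR iKO, beside −0.07 and −0.05 over all genes. By probe, 6 of 17 were called in each genotype.

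**Figure D1:**
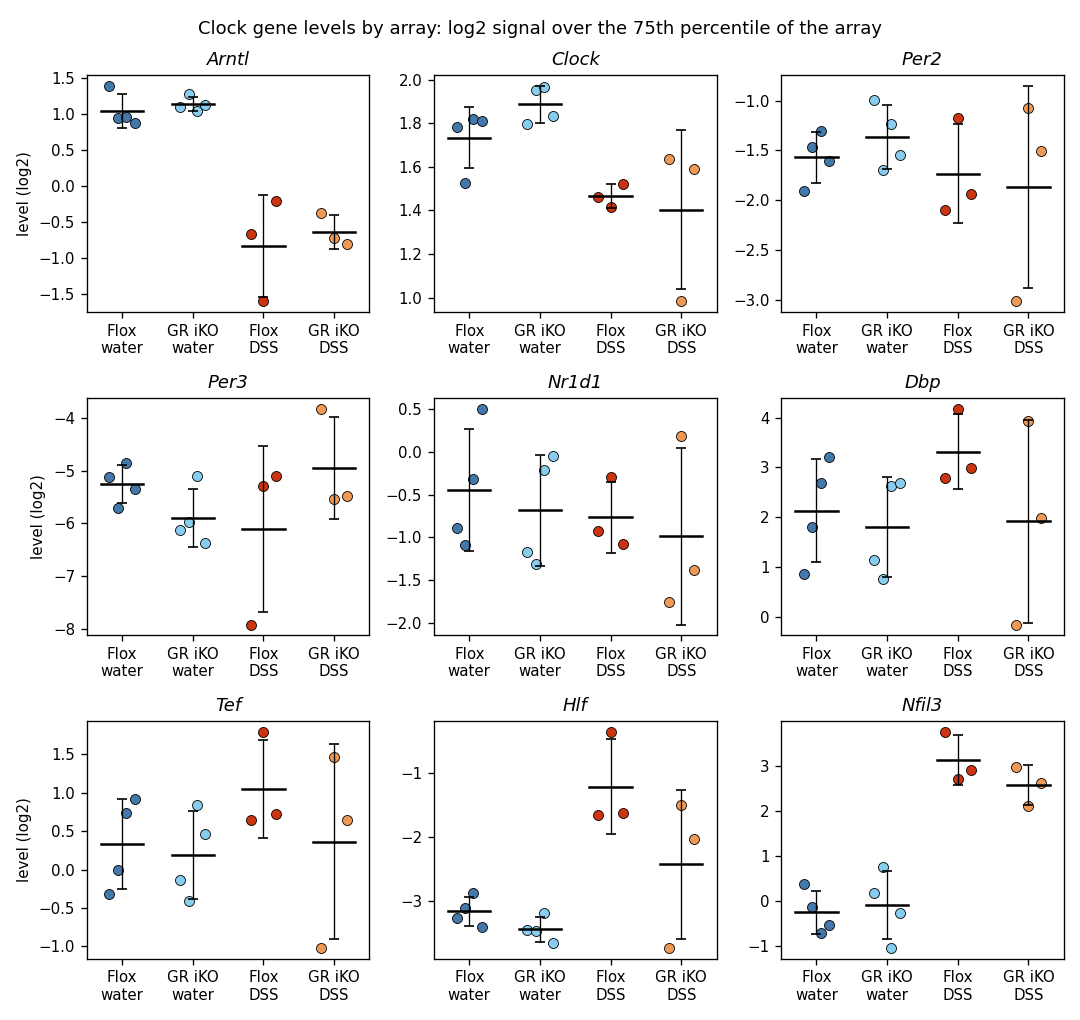
Level of each tested clock gene on every array, 1 point per mouse, in the 4 groups (y axis, log2 signal minus log2 of the array's 75th percentile; bars, mean ± SD). Arntl lay lower and Nfil3 higher on every DSS array than on every water array, whereas Dbp, Tef and Nr1d1 spread widely within groups.

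Arntl, the partner of CLOCK in the activating complex, showed the most regular fall. Its single probe (A_52_P267651) was at 1.39, 0.94, 0.95 and 0.86 in Flox water replicates 1 to 4 and at 1.09, 1.27, 1.04 and 1.12 in GR iKO water replicates 1 to 4. On DSS it was at −0.67, −1.60 and −0.21 in Flox replicates 1, 2 and 4 and at −0.38, −0.73 and −0.81 in GR iKO replicates 1, 3 and 4. Every DSS array thus lay below every water array. Arntl fell 3.64-fold in Flox (log2 difference −1.87, SE 0.26, adjusted p = 0.000131) and 3.42-fold in GR iKO (−1.77, SE 0.26, adjusted p = 0.000292). Within slides that held both groups, the difference was between −2.54 and −1.08 in Flox and between −1.94 and −1.47 in GR iKO, negative in 3 of 3 slides each. Arntl remained called in both genotypes under all 29 alternatives. The differences between genotypes were 0.09 on water (95% interval −0.24 to 0.43) and 0.19 on DSS (−0.53 to 0.91), and that between the responses was 0.09 (−0.70 to 0.89).

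Clock, the other activator, changed less, and its probes did not give the same call. The brightest probe (A_52_P334670) ran from 1.53 to 1.82 in Flox water, 1.80 to 1.97 in GR iKO water, 1.41 to 1.52 in Flox DSS and 0.98 to 1.64 in GR iKO DSS colons. DSS arrays lay below water arrays in each genotype, in Flox only just, with 1.523 as the highest DSS value and 1.527 as the lowest water value. This probe fell 1.4-fold in GR iKO (−0.48, SE 0.16, adjusted p = 0.0301) and was not called in Flox (−0.27, SE 0.16, adjusted p = 0.185). The GR iKO call rested on few arrays. Without GR iKO DSS replicate 3, the difference was −0.27 (adjusted p = 0.184), and the call was also lost without Flox DSS replicate 1 (0.0509), GR iKO water replicate 2 (0.0517) or GR iKO water replicate 3 (0.0523). A dimmer probe, A_52_P334677, was called lower in both genotypes (−0.57, adjusted p = 0.00487 in Flox, and −0.67, adjusted p = 0.00242 in GR iKO), although in Flox not without replicate 2 on DSS (−0.48, adjusted p = 0.051). The dimmest, A_52_P161365, was well above background on 1 of 3 Flox DSS arrays. It was called lower in both genotypes (−1.22, adjusted p = 0.00125 in Flox, and −0.67, adjusted p = 0.04 in GR iKO), but normexp background correction, which shrinks differences of dim probes, gave 0.18 in Flox and −0.04 in GR iKO, neither called. The median probe in that setting was at 0.19 in Flox and 0.09 in GR iKO. The GR iKO call of A_52_P161365 was also lost without any 1 of Flox DSS replicates 1 or 2, GR iKO water replicates 2, 3 or 4 and GR iKO DSS replicates 1 or 4 (adjusted p = 0.0534 to 0.19). With the mean over its probes, Clock was called lower in Flox (−0.68, adjusted p = 0.00177).

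**Figure D2:**
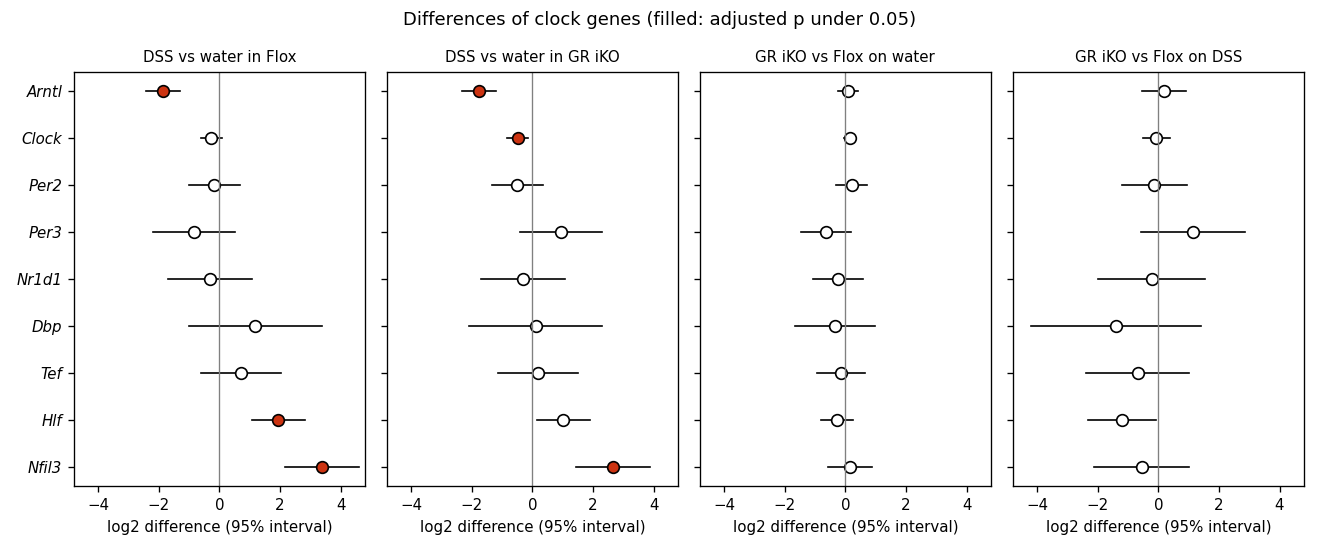
Log2 difference (points) with its 95% interval (lines) for 9 clock genes in 4 comparisons, filled where the adjusted p was under 0.05. Filled points are Arntl, Hlf and Nfil3 in Flox and Arntl, Clock and Nfil3 in GR iKO, and both genotype comparisons hold open points only.

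Per2 and Per3, period genes that repress CLOCK and ARNTL, were not called. Per2 (A_51_P282760) ran from −1.91 to −1.30 in Flox water, −1.70 to −0.99 in GR iKO water, −2.10 to −1.17 in Flox DSS and −3.01 to −1.08 in GR iKO DSS colons, with the lowest value in GR iKO DSS replicate 1. All 4 groups overlapped. The DSS difference was −0.17 in Flox (95% interval −1.002 to 0.672) and −0.50 in GR iKO (−1.34 to 0.34). A second, dimmer Per2 probe (A_52_P536869) had differences of 0.65 and −0.19, neither called. In Flox this probe was called higher with a replicate block (0.77, adjusted p = 0.0115) and lower under spike-in scaling (−1.72, 0.0135). Per3 (A_51_P258493) was dim, being well above background on 4 of 4 Flox water, 1 of 4 GR iKO water, 1 of 3 Flox DSS and 3 of 3 GR iKO DSS arrays. Its DSS difference was −0.85 in Flox (95% interval −2.19 to 0.50) and 0.95 in GR iKO (−0.40 to 2.29). The interaction was 1.79 (−0.11 to 3.70) and was not called. Flox DSS replicate 1, at −7.92, lay far below the others of its group (−5.29 and −5.11). GR iKO DSS replicate 1, at −3.825, lay far above the others of its group (−5.54 and −5.49).

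Nr1d1, the repressor of Arntl and Nfil3, was not called either, and its levels differed more between mice than between groups. They were −0.89, −1.10, −0.31 and 0.51 in Flox water and −1.17, −1.32, −0.21 and −0.05 in GR iKO water replicates 1 to 4, and −0.93, −0.29 and −1.08 in Flox DSS and −1.76, 0.19 and −1.39 in GR iKO DSS replicates. The groups overlapped. The DSS difference was −0.32 in Flox (95% interval −1.71 to 1.07) and −0.30 in GR iKO (−1.69 to 1.09), and the other 2 probes of Nr1d1 had differences between −0.23 and 0.09. Both intervals include a 2-fold change in either direction, so these arrays cannot exclude a change of that size.

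Among the PAR bZIP activators, which carry the clock's rhythm to output genes, Hlf rose in Flox colons. Its probe (A_51_P134228) was at −3.26, −3.10, −2.87 and −3.40 in Flox water and −3.45, −3.46, −3.19 and −3.65 in GR iKO water replicates 1 to 4, at −1.65, −0.36 and −1.63 in Flox DSS replicates 1, 2 and 4, and at −3.72, −1.50 and −2.03 in GR iKO DSS replicates 1, 3 and 4. Flox DSS arrays were all above Flox water arrays, while 1 GR iKO DSS array, replicate 1, lay below all water arrays and the other 2 above them. Hlf rose 3.85-fold in Flox (1.95, SE 0.40, adjusted p = 0.00187; 1.61 to 2.74 within 3 of 3 slides), except that its sign turned under scaling to spike-in transcripts (−0.42, adjusted p = 0.439), a setting in which the median probe was at −2.48, or 2.07 below Hlf. In GR iKO the difference was 1.02 (SE 0.40, adjusted p = 0.062), and without replicate 1 on DSS it was 1.67 (adjusted p = 0.00375). Hlf was also the clock gene with the lowest p between genotypes on DSS (−1.21, 95% interval −2.33 to −0.08, adjusted p = 0.247 by limma). The interaction for Hlf was −0.93 (SE 0.57, adjusted p = 0.483).

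Dbp, the PAR bZIP factor with the strongest daily rhythm in many tissues, had the widest range. Its probe (A_51_P180492) was at 0.85, 1.80, 2.68 and 3.21 in Flox water and at 1.15, 0.76, 2.63 and 2.69 in GR iKO water replicates 1 to 4. On DSS it was at 2.78, 4.18 and 2.99 in Flox replicates 1, 2 and 4 and at −0.15, 3.92 and 1.99 in GR iKO replicates 1, 3 and 4. Within groups, the highest and lowest mouse differed 5.12-fold in Flox water, 3.82-fold in GR iKO water, 2.63-fold in Flox DSS and 16.8-fold in GR iKO DSS. The DSS difference was 1.18 in Flox (95% interval −1.01 to 3.38) and 0.11 in GR iKO (−2.08 to 2.31), and that between genotypes on DSS was −1.40 (−4.21 to 1.41), none called.

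Tef, the third PAR bZIP factor, was high and low in much the same mice as Dbp, though not in the same order throughout (GR iKO water replicate 3 was above replicate 4 for Tef and below it for Dbp). Its brightest probe (A_52_P485573) was at −0.32, −0.01, 0.74 and 0.92 in Flox water and −0.14, −0.41, 0.85 and 0.46 in GR iKO water replicates 1 to 4. On DSS it was at 0.64, 1.79 and 0.72 in Flox and −1.02, 1.46 and 0.65 in GR iKO replicates. Groups overlapped, and the DSS difference was 0.72 in Flox (95% interval −0.60 to 2.04) and 0.18 in GR iKO (−1.145 to 1.495). The dimmer probe A_52_P173309 did not overlap between DSS (−4.83 to −4.14) and water (−6.37 to −5.10) in Flox and was not called (1.20, adjusted p = 0.163). It was called in Flox with only the arrays compared (1.20, adjusted p = 0.0327), normexp background correction (0.83, 0.00789) and a replicate block (1.39, 0.00929). This probe was well above background on 3 of 4 Flox water and 2 of 3 Flox DSS arrays. The third Tef probe was not called.

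Nfil3, the repressor that opposes the PAR bZIP factors at D-boxes and that is also induced by cytokines in immune cells, rose most. Its brightest probe (A_52_P500027) was at 0.39, −0.13, −0.71 and −0.52 in Flox water and 0.19, 0.76, −1.03 and −0.25 in GR iKO water replicates 1 to 4, and at 3.76, 2.73 and 2.91 in Flox DSS and 2.99, 2.11 and 2.63 in GR iKO DSS replicates. No DSS array came near the highest water array. Nfil3 rose 10.4-fold in Flox (3.38, SE 0.56, adjusted p = 0.000434) and 6.31-fold in GR iKO (2.66, SE 0.56, adjusted p = 0.0028), and within slides by 2.86 to 3.43 and 2.80 to 3.14. Under spike-in scaling the rises were 1.01 (adjusted p = 0.235) and 1.74 (0.0808). The second probe, A_51_P111492, rose by 3.61 and 2.62. The interaction, the GR iKO response less the Flox response, was −0.72 (95% interval −2.44 to 1.00).

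Between genotypes, none of the 9 clock genes was called on water, on DSS or in the interaction (limma, Benjamini-Hochberg over all probes). Over all 29520 probes, 0.0237% were called on water and 0.0136% on DSS, and 0% in the interaction. The count on DSS, 4 probes, rested on the weights and on single arrays. It was 3872 with a shared spread, 4555 with array quality weights and 4066 with slide as a random block, and 835 without Flox DSS replicate 4 and 778 without GR iKO DSS replicate 3. With 1 probe per gene the shares were 0.0257%, 0.0193% and 0%. At an unadjusted p under 0.05, 0 of the 9 differed on water, 1 on DSS (Hlf) and 0 in the interaction. With 1 probe per gene, as for the clock genes, these counts were 421, 3083 and 2575 of 15537 genes. By probe they were 967, 5248 and 4404 of 29520. On water the narrowest intervals were those of Clock (0.15, −0.06 to 0.36) and Arntl, and the widest that of Dbp (−0.33, −1.65 to 0.99). On DSS they widened to a span of −4.21 to 1.41 for Dbp. The number called was 0 on water and on DSS under every alternative, and 0 in the interaction except under spike-in scaling, where Per3 and Arntl were called and the median probe was at 1.45.

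Differences between mice of the same group were large for some clock genes and not for others. On the 8 water arrays the SD within groups was 1.02 log2 units for Dbp, 0.684 for Nr1d1, 0.635 for Nfil3 and 0.58 for Tef, against a median of 0.152 over 13293 genes well above background on all arrays. Dbp ranked 44th, and 98.1% to 99.7% of these genes varied less than the 4. Per2 (0.287), Hlf (0.209), Arntl (0.183) and Clock (0.116) varied less, with 85%, 70.6%, 62.2% and 31.4% of genes below them. On the 6 DSS arrays the SD was 1.54 for Dbp, 1.00 for Tef, 0.972 for Hlf, 0.799 for Per2, 0.791 for Nr1d1, 0.527 for Arntl, 0.499 for Nfil3 and 0.261 for Clock, with a median of 0.291. In both water groups, replicates 3 and 4 had higher Dbp, Tef and Nr1d1 than replicates 1 and 2. Replicates 3 and 4 were on slides 3 and 4 in Flox and on slides 1 and 4 in GR iKO. In both genotypes Dbp on water was high on slide 4 (3.21 and 2.69) and lower on slide 2 (1.80 and 0.76), while on slides 1 and 3 the genotypes differed in opposite directions. The part of the slide in these levels was not tested.

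**Figure D3:**
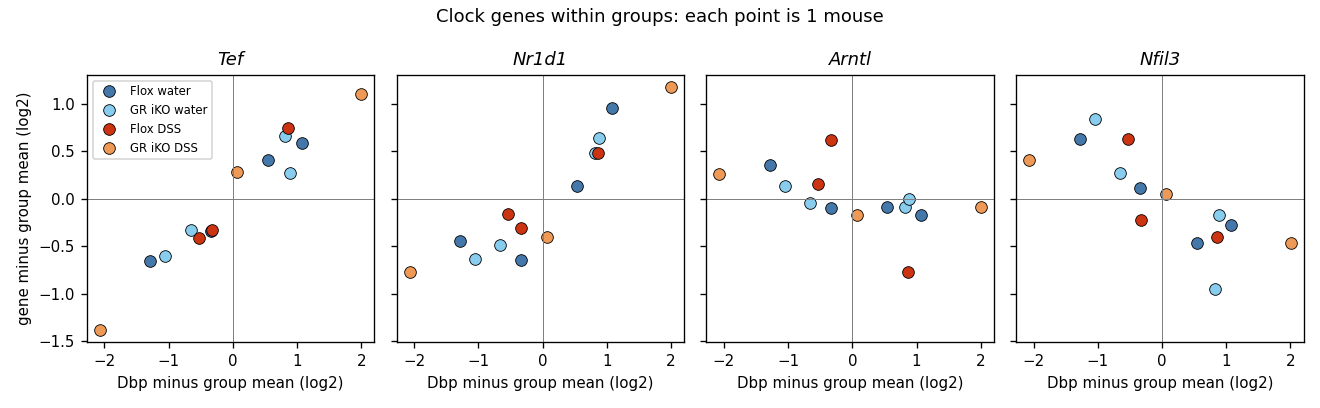
Level of Tef, Nr1d1, Arntl and Nfil3 minus the mean of the group (y axes, log2) against the same for Dbp (x axes, log2), 1 point per mouse. Points rise with Dbp for Tef and Nr1d1, descend loosely for Arntl (Pearson r −0.56) and descend more closely for Nfil3 (−0.791).

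Deviations from the group means showed which genes moved together, as a description over 14 arrays that share their normalization. DSS arrays weigh more in these values, since deviations were larger there (SD 0.527 against 0.183 on water for Arntl, 1.54 against 1.02 for Dbp). Arntl lay farthest from its group mean (−0.83) in Flox DSS replicates 2 (−1.60) and 4 (−0.21). Dbp did so in GR iKO DSS replicates 1 (−0.15) and 3 (3.92), around a mean of 1.92. Deviations of Dbp correlated at a Pearson r of 0.974 with Tef, 0.917 with Nr1d1, 0.765 with Per2 and 0.721 with Hlf, and at −0.791 with Nfil3, −0.56 with Arntl and −0.526 with Clock. Among 13285 genes that are not members, those most like Dbp were Nr1d2 (0.966), the paralog of Nr1d1, followed by Foxj3 (0.948), Fbxo4 (0.936), Hdac11 (0.905) and Ank (0.904). Of all genes compared, only Tef ranked above Nr1d2. Those most like Arntl were Slc5a9 (0.953), Rnf128 (0.913), Zdhhc13 (0.894), Grn (0.89) and Gna14 (0.889). No clock gene was among the 5, and Nfil3 was at 0.429 and Clock at 0.244.

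The relation of Arntl to Dbp and Nr1d1, which peak at the opposite phase, was tested within water and within DSS arrays, 4 relations in all. On the 8 water arrays, Arntl and Dbp had a Pearson r of −0.771 (exact permutation p = 0.0258, adjusted 0.103) and a Spearman rho of −0.667 (exact p = 0.0831, adjusted 0.332). Without the 2 arrays farthest from the median Arntl level, Flox water replicate 1 and GR iKO water replicate 2, r was −0.409. Removing extreme arrays narrows the range of Arntl and tends to weaken r, so this value cannot tell whether the relation rested on them. Leaving out any 1 array gave −0.84 to −0.69. For Arntl and Nr1d1 on water, r was −0.536 (exact p = 0.176, adjusted 0.307; rho −0.429, exact p = 0.299, adjusted 0.419) and −0.318 without the same arrays. On the 6 DSS arrays, r was −0.549 with Dbp (exact p = 0.261, adjusted 0.307; rho −0.429, exact p = 0.419, adjusted 0.419) and −0.514 with Nr1d1 (exact p = 0.307, adjusted 0.307; rho −0.429, exact p = 0.419, adjusted 0.419). Leaving out Flox DSS replicates 2 and 4 gave −0.774 and −0.502. All 4 values were negative and none passed the adjusted threshold. With group means removed, r on water with Dbp was −0.762 (adjusted p = 0.0405 by permutation across both groups). That p is not exact and may be too small, since deviations from group means cannot be exchanged freely between groups.

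Other genes of the clock machinery, a list of 15 of which 14 were tested, moved with DSS in both directions. In Flox, 5 rose and 2 fell, and in GR iKO, 4 rose and 1 fell, with a median of 0.53 and 0.43. Those called were 7 of 14 and 5 of 14, beside 50.5% and 42.9% of all genes. Under spike-in scaling none rose and 11 fell in Flox, and none rose and 3 fell in GR iKO. Genes called higher in both genotypes were Arntl2, a paralog of Arntl (adjusted p = 0.000582 in Flox and 0.000428 in GR iKO), Per1, a repressor (1.48, 0.0011 and 1.02, 0.013), Rora, an activator at ROREs (1.32, 0.000111 and 0.94, 0.00155), and Csnk1e, a kinase of PER proteins (1.15, 8.98e-05 and 0.66, 0.00422). Arntl2 was dim, being well above background on 1 of 4 Flox water, 0 of 4 GR iKO water, 2 of 3 Flox DSS and 2 of 3 GR iKO DSS arrays. Its difference was 1.70 in Flox and 0.79 with normexp background correction, and for GR iKO the DSS level was at least 1.44-fold higher, taking the dimmest signal well above background on each water array as the lowest possible water level. All 4 turned negative in Flox under spike-in scaling (Arntl2 −0.66, Per1 −0.89, Rora −1.04 and Csnk1e −1.22), while staying 1.26 to 1.82 above the median probe, and Csnk1e also did in GR iKO (−0.26). Without GR iKO DSS replicate 4, Per1 in GR iKO was at 0.89 (adjusted p = 0.0771).

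Cry1, a repressor (−1.35, adjusted p = 0.0165), and Npas2, a paralog of Clock (−0.86, 0.0359), were called lower in Flox only and Btrc, which targets PER proteins, in GR iKO only (−0.63, 0.0306). None of them was called in the interaction. Cry1 was at −0.68 without Flox DSS replicate 4 (adjusted p = 0.117) and Npas2 at −0.49 without Flox DSS replicate 2 (0.288). With only the arrays compared, neither was called (adjusted p = 0.0611 for Cry1 and 0.0817 for Npas2). Cry1 and Npas2 were each well above background on 2 of 3 Flox DSS arrays. Both turned positive under normexp background correction (0.20 and 0.17), a setting in which the median probe in Flox was at 0.19. The Npas2 call was also lost without Flox water replicates 1 or 4 or Flox DSS replicate 1 (adjusted p = 0.0579 to 0.14). Btrc was not called without GR iKO water replicate 4 or GR iKO DSS replicates 1 or 4 (adjusted p = 0.0517 to 0.143). Fbxl21, an F-box protein, rose in Flox (0.94, adjusted p = 0.0199), a call lost without Flox DSS replicate 1 (0.112) or 2 (0.114), and was negative (−1.42) under spike-in scaling. The call was also lost with quantile normalization (0.74, adjusted p = 0.085) and with the deposited value table (0.74, 0.0849). Its probe was dim, being well above background on 2 of 4 Flox water and 2 of 3 Flox DSS arrays.

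**Figure D4:**
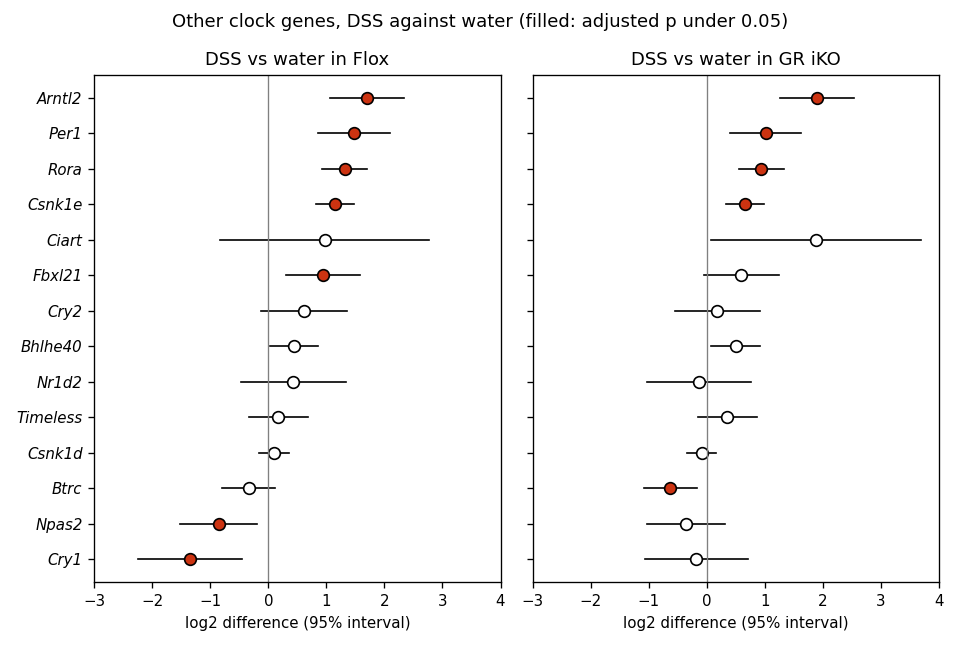
Log2 difference between DSS and water (points) with its 95% interval (lines) for 14 other clock genes in Flox (left) and GR iKO (right), filled where the adjusted p was under 0.05. Arntl2, Per1, Rora and Csnk1e are filled on the right of 0 in both panels, and Fbxl21 in Flox only. On the left of 0, Cry1 and Npas2 are filled in Flox and Btrc in GR iKO.

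Clock output genes, a list of 14 of which 13 were tested, showed 4 higher and 3 lower in Flox and 5 higher and 2 lower in GR iKO, with medians of −0.01 and 0.28. Those called were 7 of 13 in each genotype, beside 50.5% and 42.9% of all genes. Under spike-in scaling 1 was higher and 12 lower in Flox, and 1 higher and 4 lower in GR iKO. The lowest adjusted p values were those of Tspan4, a tetraspanin (3.57 in Flox and 3.33 in GR iKO), Por, cytochrome P450 oxidoreductase (0.83 and 0.57), Marveld1 in Flox (1.25, against 0.28 in GR iKO, not called) and Klf10, a zinc-finger repressor (1.18 and 1.75). Of these, Por, Marveld1 and Klf10 turned negative in Flox under spike-in scaling (−1.53, −1.11 and −1.18), as did Por in GR iKO (−0.35).

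Glucocorticoid-induced genes, a list of 12 that includes Per1, had 11 tested, of which 6 rose and none fell in Flox and 8 rose and none fell in GR iKO, with medians of 1.48 and 1.02. Over all genes 24.2% and 20.3% were called higher. The lowest adjusted p values were those of Pdk4, which inhibits pyruvate dehydrogenase (1.89 and 2.08), Cebpd, a transcription factor also induced by cytokines (2.70 and 2.48), and Mt2, a metallothionein (4.75 and 4.27). Klf9, Sgk1 and Tsc22d3, named after their values were seen, were not called in either genotype (−0.61 to 0.19). Under spike-in scaling the list gave 1 higher and 6 lower in Flox and 3 higher and 1 lower in GR iKO, and Pdk4 was at −0.47 in Flox. None of the 3 lists had a gene called between genotypes or in the interaction.

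The makeup of the tissue moved with DSS beside the clock genes, and in whole colon fewer cells of a type and less RNA per cell cannot be told apart. All 12 epithelium markers were tested, 0 higher and 6 lower in Flox and 1 higher and 1 lower in GR iKO, with a summed level (log2) of 10.3 to 10.6 in Flox water, 10.02 to 10.72 in Flox DSS, 10.3 to 10.6 in GR iKO water and 10.3 to 10.9 in GR iKO DSS colons. Beside these counts, 24.2% of all genes were called higher and 26.3% lower in Flox, and 20.3% and 22.6% in GR iKO. Neutrophil markers were called higher for 9 and 10 of 10 genes, but 3 of the 10 were well above background on no Flox water array, 4 on no GR iKO water array and only 1 on all 14 arrays, so several could pass the filter through DSS arrays alone. Restricted to genes well above background on all arrays, 1 was called higher in each genotype. The summed level was −2.45 to −1.29 in Flox water and 4.54 to 6.00 in Flox DSS, and −2.18 to −0.65 and 6.33 to 8.11 in GR iKO. Macrophage markers were higher for 5 and 8 of 10 (3.88 to 4.21 and 4.51 to 5.31 in Flox, 3.83 to 4.40 and 5.08 to 6.08 in GR iKO). Enteric neuron markers were higher for 8 of 8 in each genotype (1.88 to 2.40 and 4.45 to 5.08 in Flox, 2.10 to 2.58 and 3.77 to 4.63 in GR iKO), Ret and Chat not being tested and 2 of the 8 well above background on no water array. Smooth muscle markers were higher for 9 of 10 in Flox (9.09 to 9.74 and 10.3 to 11.2) and 0 of 10 in GR iKO (9.05 to 9.71 and 8.67 to 9.92). Lymphocyte markers were higher for 1 and lower for 4 of 10 in Flox and higher for 1 in GR iKO, adipocyte markers higher for 2 of 7 in Flox and lower for 3 in GR iKO, and skeletal muscle markers higher for 2 and lower for 1 of 6 in Flox and lower for 1 in GR iKO. Under spike-in scaling these counts became, in Flox, 12 lower for epithelium, 8 lower for smooth muscle, 5 lower for macrophages, 9 lower for lymphocytes and none higher for enteric neurons, with 6 higher for neutrophils. In GR iKO they became 4 lower for epithelium, 2 lower for smooth muscle, none higher for macrophages, 1 higher for enteric neurons and 9 higher for neutrophils. The part of these shifts in the changes of Arntl, Nfil3, Hlf and the other clock genes was not tested.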

How the data were processed

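Whole-colon total RNA (500 ng per mouse, labelled with Cy3) was hybridised to Agilent 4x44K mouse arrays, 1 colour, 1 mouse per array. The authors extracted spots with Agilent Feature Extraction 12.0.0.7 (file headers). The deposited scanner files hold intensity on a linear scale, background-subtracted and detrended, with small values raised to a positive surrogate, which shrinks differences of dim probes. The deposited value table of the authors holds log2 values with the same quartiles on every array; the submitters' processing notes name Partek 6.6. Its scale and centring fit quantile-normalized log2 signals, and it served as an alternative.

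Here, 1639 control spots were removed, outlier spots were treated as missing, and the remaining spots of each probe were averaged. Levels are log2 of the processed signal minus the log2 of the 75th percentile of the array. Accessions were matched to a GRCm38.p6 gene table (28223 of 29245 probes with a RefSeq accession). The array grid was drawn on mm9, so probes have no coordinates here. Probes well above background on at least 3 of 14 arrays were tested with limma 3.58.1 in R 4.3.3 (lmFit, eBayes, 4 group means over 14 arrays, 1 array weight for water and 1 for DSS), two-sided, with Benjamini-Hochberg adjustment over all 29520 probes and a threshold of 0.05. The fit was tested on simulated data, drawn with each probe's own spread on water and on DSS. It made more false calls than nominal there, and the reason was not tested. For a gene with several probes the brightest stands for it. A total of 97 tested probes missed a value on at least 1 array, and no probe was saturated. Exact permutation tests were two-sided (Python 3.11.15, NumPy 2.4.6, SciPy 1.17.1). How the study tested its arrays was not used here. The number of arrays limits the precision.

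The members and lists, and the weights by treatment, were chosen with earlier results of these data known. From the list of other clock genes, 2 are not reported here and were left out of its counts. Named were all members, each remaining gene of that list called in at least 1 comparison, the 3 lowest adjusted p values per comparison from the other lists, and the 5 genes most like Dbp and Arntl. Alternatives were the spread model, background correction (normexp, offset 50, on median signals, since the files hold no mean signals), scaling, the filter on dim probes, slide and replicate blocks, the mean over probes, and leaving out arrays. Each slide held up to 4 arrays, 1 per group, and the position on the slide followed the group, so position and group cannot be told apart.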

Additional observations from a re-analysis of the deposited data

Results flagged for a closer look

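Among 34 groups of 4 water arrays examined, 1 per clock probe and genotype, 2 held an array far from the others, and chance alone marks about 1 in 20 such groups. Arntl (A_52_P267651) was at 1.388 in Flox water replicate 1, with the other 3 arrays between 0.863 and 0.949. Clock (A_52_P334670) was at 1.527 in Flox water replicate 2, with the others between 1.784 and 1.818. Groups of 3 were not examined in this way.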

How the results depend on the processing

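The number of clock genes called on DSS in Flox, 3, was 3 on leaving out any 1 array, and 5 with array quality weights (adding Per3 and Clock) and 5 under spike-in scaling (Per2, Per3, Nr1d1, Arntl and Clock). In GR iKO it was 2 to 4 on leaving out 1 array. Between genotypes and in the interaction it was 0 to 0 on leaving out 1 array, and 2 in the interaction under spike-in scaling. Spike-in scaling moved the median probe by −2.48 in Flox and −0.99 in GR iKO, and turned the Flox difference of Hlf to −0.42, Arntl2 to −0.66, Csnk1e to −1.22, Fbxl21 to −1.42, Klf10 to −1.18, Marveld1 to −1.11, Pdk4 to −0.47, Per1 to −0.89, the dimmer Per2 probe to −1.72, Por to −1.53 and Rora to −1.04, and in GR iKO that of Csnk1e to −0.26 and Por to −0.35. Normexp turned the Flox difference of the dimmest Clock probe to 0.18, Cry1 to 0.20 and Npas2 to 0.17. It put the median probe in Flox at 0.19, against −0.12 in the reported setting, and gave 63.1% of Flox calls as higher, against 43.7%. The causes were not tested.

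Nr3c1 on water was not called with a shared spread (−0.81, adjusted p = 0.0962), only the arrays compared (−0.81, 0.285), slide as a fixed (−0.81, 0.145) or random block (−0.81, 0.081), spike-in scaling (−0.99, 0.141) or the mean of its probes (−0.90, 0.111), and ranged from −0.87 to −0.74 on leaving out 1 array, losing the call without Flox water replicate 3 (−0.81, 0.0578). On DSS it was called with a shared spread (−0.85, 0.00705), array quality weights (−0.93, 0.00688), slide as a random block (−0.85, 0.00641) and without Flox DSS replicate 4 (−0.95, 0.0447), ranged from −0.95 to −0.75 on leaving out 1 array, and was 0.40 (0.537) under spike-in scaling. For Arntl with Dbp, r on water was −0.76 with group means removed, and on leaving out 1 array ran from −0.84 to −0.69 on water, passing the adjusted threshold without Flox water replicate 2 (−0.84, exact permutation adjusted p = 0.0492), and from −0.72 to −0.29 on DSS. With Nr1d1 it ran from −0.72 to −0.31 and from −0.76 to −0.37.

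Over all probes, the 4 called between genotypes on DSS became 200 with trend and robust, 0 with only the arrays compared, and 0 to 835 on leaving out 1 array. In the interaction, 0 were called, against 3025 with array quality weights, 8029 under spike-in scaling and 61 without GR iKO DSS replicate 3. Over all probes, deviations of same-numbered mice correlated at −0.08 to 0.31, not above 0.1 in every pair, so the numbers were not taken to pair the mice, although Dbp, Tef and Nr1d1 were higher in replicates 3 and 4 than in 1 and 2 in both water groups. With a replicate block, 3 clock genes were called in Flox and 4 in GR iKO, which added Hlf, and Nr3c1 on water was at −0.81 (adjusted p = 0.16). In that setting the dimmer probes A_52_P536869 of Per2 (0.77, adjusted p = 0.0115) and A_52_P173309 of Tef (1.39, 0.00929) were also called in Flox. After seeing the data, the DSS arrays of lowest and highest Dbp were left out, which gave 1.67 for Hlf in GR iKO (adjusted p = 0.00238). Of marker counts, leaving out 1 array gave 2 to 7 epithelium markers lower and 6 to 10 smooth muscle markers higher in Flox. Dim probes, such as those of Per3, are limited by their signal over background.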
